A study of Homo sapiens with 4 samples.

Results

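KLF4 and 8 genes of the LSD1-CoREST-CtBP corepressor were examined in CaSki cells, a cervical squamous carcinoma line, in which ZNF750 or GFP had been introduced by lentivirus. The 9 genes are KLF4, KDM1A (which encodes LSD1), RCOR1, RCOR2, RCOR3, CTBP1, CTBP2, PHF21A and HMG20B. Every probe set whose annotation gave exactly 1 symbol, equal to one of these, was kept, and this gave 26 of the 54613 probe sets tested, for 9 of the 19775 genes that had such a probe set. Total RNA was hybridized to 4 single-colour Affymetrix arrays, 2 labelled as ZNF750 overexpression and 2 as GFP overexpression. According to the sample labels, both groups grew in DMEM with 0% fetal bovine serum and 1% penicillin and streptomycin. The serum value may be a typing error and could not be checked from the arrays. Lentiviral delivery is given for both groups, so the control cells also carried a lentivirus. The promoter that drives each insert and the number of clones are not given in the sources used here, and the design text calls the duplicates biological without describing their cultures. The p-values therefore measure the spread between these arrays.

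ZNF750 is a zinc finger protein of the epidermis that is known to act in opposite ways with different partners. With KLF4, a Krüppel-like activator of terminal differentiation, it turns on differentiation genes, and with a corepressor it silences progenitor genes. In that corepressor the demethylase LSD1 removes methyl groups from lysine 4 of histone H3 while held on the scaffold CoREST, CtBP recruits the assembly to DNA-binding proteins, PHF21A reads the unmethylated histone tail and HMG20B supplies an HMG-box DNA-binding domain. The comparison asks whether the transcripts of these partners themselves differed when ZNF750 was introduced.

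Of the 26 probe sets, 4 were higher and 1 was lower in the ZNF750-labelled arrays, at a limma p-value below 0.05 after adjustment over all probe sets. The higher ones read KLF4 (221841_s_at), PHF21A (203278_s_at), RCOR2 (236030_at) and CTBP2 (210835_s_at), and the lower one read HMG20B (209113_s_at). All 5 differences were modest: KLF4 rose 1.37-fold, PHF21A 1.5-fold, RCOR2 1.34-fold and CTBP2 1.14-fold, while HMG20B fell by 0.33 on the log2 scale. No probe set of KDM1A, RCOR1, RCOR3 or CTBP1 passed, and the KDM1A one narrowly missed. On the arrays as a whole 11.5% of probe sets passed, 4.3% as higher and 7.19% as lower, so the members' share of 5 of 26 is given as a count only. The median difference was -0.0016 among the 26 probe sets and 0.026 among all of them, and the median absolute differences were 0.11 and 0.14. The groups did not overlap for 16 of the 26 probe sets, 9 higher and 7 lower with ZNF750, against 54.2% of all probe sets (29.9% higher and 24.3% lower). An exact permutation test of these arrays cannot give a p-value below 0.333. The share of all probe sets at an unadjusted limma p below 0.05 is not given here. Counts at that threshold, for the members or the lists below, therefore cannot be weighed against the arrays as a whole. With any 1 array left out, 0 of the 26 probe sets passed in either direction, while 4 or 5 were higher and 2 to 4 lower at an unadjusted limma p below 0.05. The share of all probe sets that passed was then 1.7% without ZNF750 replicate 1, 1.19% without ZNF750 replicate 2, 0.0201% without GFP replicate 1 and 0.0165% without GFP replicate 2.

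**Figure D1:**
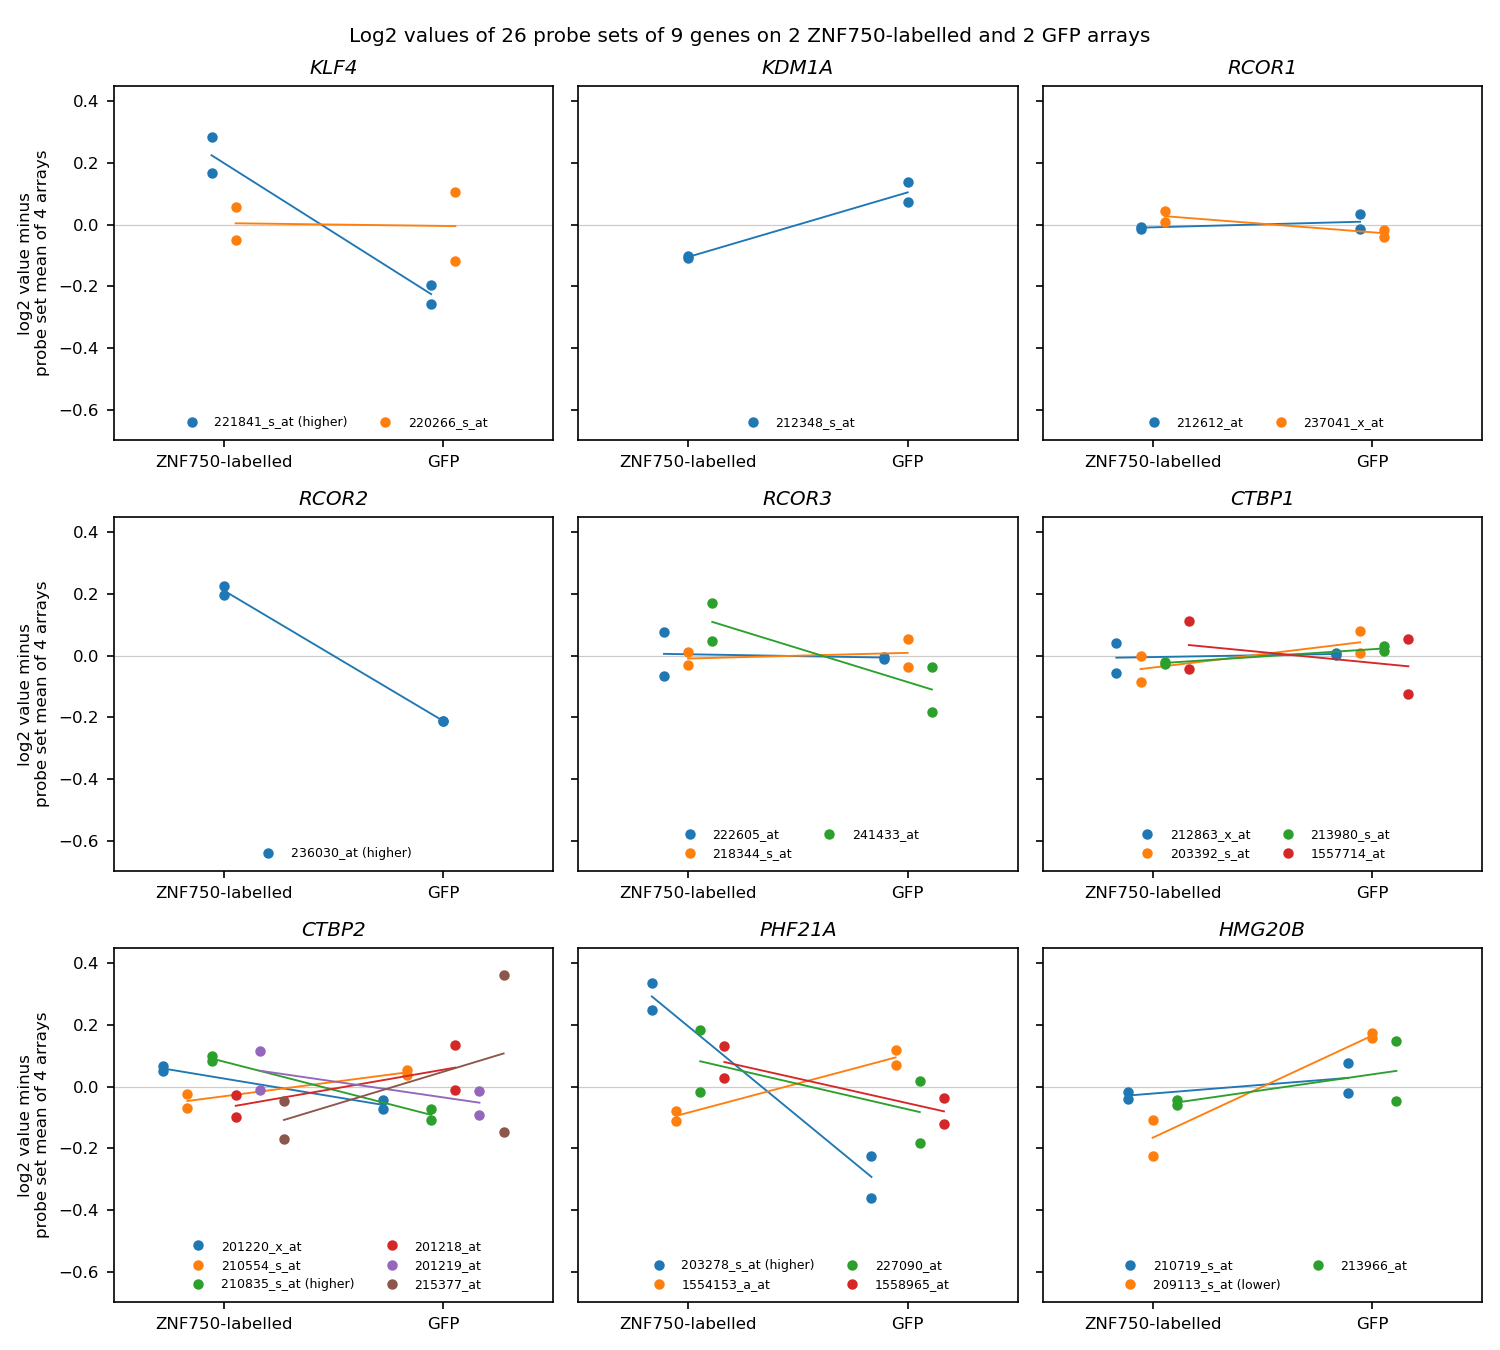
Log2 value of each probe set on each array minus that probe set's mean over the 4 arrays, with 1 panel per gene, ZNF750-labelled arrays on the left and GFP arrays on the right. Points are single arrays and lines join the group means. Both ZNF750-labelled arrays lie above both GFP arrays for KLF4 221841_s_at, RCOR2 236030_at and PHF21A 203278_s_at, and the lines of CTBP2 and PHF21A cross.

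The bases before the annotated start are shown for 3 genes: KLF4 and PHF21A, each with 1 higher probe set, and HMG20B, with 1 lower. They come from RefSeq on GRCh38.p14 and cover 250 bases: chr9:107489770-107490019 on the minus strand for KLF4, chr11:46121455-46121704 on the minus strand for the first listed of PHF21A's 3 starts, and chr19:3572694-3572943 on the plus strand for HMG20B. Capitals mark matches on either strand to CCNNAGGC, a motif reported for ZNF750 in keratinocytes, or to CACCC, the core of the box that Krüppel-like factors bind. No match of one motif overlapped a match of the other in these 3 windows.
KLF4: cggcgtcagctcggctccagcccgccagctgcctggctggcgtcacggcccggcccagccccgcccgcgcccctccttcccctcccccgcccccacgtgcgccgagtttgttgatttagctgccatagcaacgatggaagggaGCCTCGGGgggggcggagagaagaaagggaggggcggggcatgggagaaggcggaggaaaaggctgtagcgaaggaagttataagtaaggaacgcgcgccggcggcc
PHF21A: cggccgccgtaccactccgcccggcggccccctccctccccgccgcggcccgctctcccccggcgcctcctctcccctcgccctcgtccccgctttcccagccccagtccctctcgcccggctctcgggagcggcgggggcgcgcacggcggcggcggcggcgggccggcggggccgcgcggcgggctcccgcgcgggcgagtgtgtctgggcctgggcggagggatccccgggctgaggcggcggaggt
HMG20B: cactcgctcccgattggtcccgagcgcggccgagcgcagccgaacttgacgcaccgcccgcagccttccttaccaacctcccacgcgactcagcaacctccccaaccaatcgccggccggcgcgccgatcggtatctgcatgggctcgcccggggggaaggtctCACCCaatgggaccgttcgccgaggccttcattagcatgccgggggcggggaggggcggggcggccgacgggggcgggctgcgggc
The KLF4 window held 1 match to CCNNAGGC and the HMG20B window 1 match to CACCC. The letters of neither motif occur in the PHF21A window shown, but this depended on the start chosen. The windows of PHF21A's other listed starts held 1 match to CACCC at start 2 and 2 matches at start 3, and no match to CCNNAGGC. RefSeq starts were matched by gene identifier for 8 of the 9 genes, 17 windows in all. Of these, 3 held CCNNAGGC and 11 held CACCC, against 23.5% and 54.7% of 35116 windows of the same length. These matches describe letters and not binding sites.

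KLF4 had 2 probe sets, of which the brighter rose and the dimmer did not pass. On 221841_s_at the log2 values were 9.59 and 9.71 in the ZNF750-labelled arrays, against 9.17 and 9.23 in the GFP arrays. The groups did not overlap, and the gap of 0.36 between them was larger than the distance between the arrays of either group. The difference was 0.45 ± 0.063 (limma standard error, n = 2 arrays per group, adjusted p = 0.00570), at percentile 97.1 of the differences of all probe sets. On 220266_s_at the values were 6.04 and 6.15 with ZNF750, against 5.97 and 6.20 with GFP. There the ZNF750-labelled arrays lay inside the range of the GFP arrays, and the difference was 0.0090 ± 0.11, with a 95% interval from -0.26 to 0.28. The responses of the 2 probe sets differed from each other by 0.44 ± 0.13 (95% interval 0.16 to 0.72; limma over all pairs of probe sets of one gene, adjusted p = 0.0438). Both have the suffix _s_at, which marks probes that can match more than 1 transcript, and which part of the KLF4 transcript each reads was not analysed here.

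The size of the KLF4 rise depended on how its probe sets were combined and on each array. With their mean it was 0.23 and did not pass (adjusted p = 0.0833). On 221841_s_at it was 0.51 without ZNF750 replicate 1 (adjusted p = 0.0501), 0.39 without ZNF750 replicate 2 (0.0757), 0.42 without GFP replicate 1 (0.151) and 0.48 without GFP replicate 2 (0.111). It kept its direction in all 4 and under cyclic loess, a second quantile normalization and centring on brighter probe sets, where it was 0.51, 0.50 and 0.50 and passed. Without an intensity trend in the variance prior it did not pass (0.0639).

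KDM1A, the catalytic subunit, was read by 1 probe set, 212348_s_at. Its log2 values were 9.38 and 9.39 in the ZNF750-labelled arrays and 9.63 and 9.56 in the GFP arrays. The groups did not overlap, and the gap was 0.17. The difference of -0.21 ± 0.056 (95% interval -0.34 to -0.080) had an unadjusted p of 0.00617 and an adjusted p of 0.0522. It passed as lower with dim probe sets left out (adjusted p = 0.0290), with only probe sets of 1 symbol tested (0.0456) and with 1 probe set per gene (0.0323). After cyclic loess it was -0.15 and did not pass (0.136). It also fell short after the second quantile normalization (-0.16, 0.107) and centring on brighter probe sets (-0.16, 0.106). A limma fit blocked on replicate number gave an adjusted p of 0.0581. A variance prior that ignored intensity gave 0.190, so KDM1A passed in neither fit. When 1 array was left out, its difference ran from -0.24 to -0.18.

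The 3 CoREST scaffolds differed in what their probe sets showed. RCOR1, the founding member that bridges LSD1 to nucleosomes, had values of 9.65 and 9.64 with ZNF750 and of 9.69 and 9.64 with GFP on 212612_at. The difference was -0.02 ± 0.053 (95% interval -0.14 to 0.10), so the data are compatible with a change of up to that size either way. On its other probe set, 237041_x_at, it was 0.06 ± 0.097. RCOR2, a paralog known for high expression in embryonic and neural progenitor cells, was the CoREST gene with a probe set that rose. Its only probe set gave 7.40 and 7.38 in the ZNF750-labelled arrays, against 6.97 and 6.97 in the GFP arrays. Replicates lay within 0.03 of each other, and the difference was 0.42 ± 0.078 (adjusted p = 0.0151). It was 0.41 without ZNF750 replicate 1 (adjusted p = 0.103), 0.44 without ZNF750 replicate 2 (0.103), 0.42 without GFP replicate 1 (0.170) and 0.42 without GFP replicate 2 (0.144), and it did not pass without the intensity trend (0.0591).

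RCOR3, a CoREST paralog reported to oppose LSD1 in blood cells, had 3 probe sets, and none passed. Its brightest, 222605_at, gave 8.89 and 8.75 with ZNF750, against 8.82 and 8.81 with GFP. The GFP arrays lay between the ZNF750-labelled ones, and the difference was 0.01 ± 0.069 (95% interval -0.15 to 0.17). On 241433_at the groups did not overlap, with 6.72 and 6.85 against 6.64 and 6.49 with GFP, and the difference of 0.22 ± 0.098 did not pass (adjusted p = 0.210). That was the largest absolute difference among the 21 member probe sets that did not pass. The third, 218344_s_at, differed by -0.02 ± 0.081.

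CTBP1, which encodes one of the NADH-sensing CtBP corepressors, did not pass on any of its 4 probe sets. On 212863_x_at the values were 10.79 and 10.70 in the ZNF750-labelled arrays and 10.76 on both GFP arrays, and the difference was -0.01 ± 0.050 (95% interval -0.13 to 0.10). The others gave -0.09 ± 0.052 (203392_s_at), -0.05 ± 0.046 (213980_s_at) and 0.07 ± 0.12 (1557714_at). On 212863_x_at and 213980_s_at the sign turned under cyclic loess (0.05 and 0.02), the second quantile normalization (0.06 and 0.04) and centring on brighter probe sets (0.04 and 0.0064), and no CTBP1 probe set passed in those settings.

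CTBP2, whose gene also encodes the synaptic ribbon protein RIBEYE from a separate promoter, split by probe set. On 210835_s_at the log2 values were 11.18 and 11.20 with ZNF750 and 10.99 and 11.03 with GFP, a rise of 0.18 ± 0.042 (adjusted p = 0.0329). On 201220_x_at they were 11.57 and 11.56 with ZNF750 and 11.43 and 11.46 with GFP, and the difference of 0.12 ± 0.039 did not pass (0.105). On 210554_s_at they were 11.09 and 11.05 with ZNF750, against 11.17 and 11.16 with GFP, and the difference was -0.09 ± 0.043. Thus both ZNF750-labelled arrays lay above both GFP arrays on the first and second of these probe sets and below them on the third. On 201218_at the difference was -0.12 ± 0.060, on 201219_at 0.10 ± 0.071 and on the dim 215377_at -0.22 ± 0.17. The last of these rested on the GFP arrays, since it was 0.04 without GFP replicate 1 and -0.47 without GFP replicate 2, and passed in neither case. Set against 201220_x_at, the response of 210554_s_at was lower by 0.21 ± 0.048 (adjusted p = 0.0127) and that of 201218_at lower by 0.24 ± 0.062 (0.0226). The mean over the 6 probe sets was -0.0047 ± 0.054. The rise on 210835_s_at was 0.19 without ZNF750 replicate 1 (adjusted p = 0.142), 0.18 without ZNF750 replicate 2 (0.186), 0.17 without GFP replicate 1 (0.226) and 0.20 without GFP replicate 2 (0.157), and under cyclic loess, the second quantile normalization and the centring on brighter probe sets 201220_x_at passed as well.

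PHF21A, also called BHC80, gave the largest rise of the 26 probe sets and the widest disagreement within a gene. On 203278_s_at the log2 values were 9.38 and 9.29 in the ZNF750-labelled arrays, against 8.82 and 8.68 in the GFP arrays. The gap between the groups was 0.47, and the difference was 0.59 ± 0.071 (adjusted p = 0.00346), at percentile 98.8 of all differences. On 1554153_a_at both ZNF750-labelled arrays were the lower ones, with 6.73 and 6.70 against 6.93 and 6.88 with GFP, and the difference of -0.19 ± 0.084 did not pass (0.206). The responses of these probe sets differed by 0.78 ± 0.11 (95% interval 0.53 to 1.02, adjusted p = 0.00121). PHF21A is known to be alternatively spliced, and which isoforms each probe set reads was not analysed here.

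The remaining PHF21A probe sets lay between those values. On 227090_at the values were 6.49 and 6.29 with ZNF750 and 6.12 and 6.32 with GFP, with overlapping groups and a difference of 0.16 ± 0.12, which ran between 0.06 (without ZNF750 replicate 1 or without GFP replicate 1) and 0.27 (without ZNF750 replicate 2 or without GFP replicate 2). On the dim 1558965_at the difference was 0.16 ± 0.12. Neither differed from 203278_s_at by a margin that passed (adjusted p = 0.0684 and 0.144). The mean of the 4 probe sets was 0.18 ± 0.069 and did not pass (0.135), nor did the brightest probe set without a suffix for shared probes (0.16, 0.404). The rise on 203278_s_at was 0.54 without ZNF750 replicate 1 (adjusted p = 0.0588), 0.63 without ZNF750 replicate 2 (0.0554), 0.65 without GFP replicate 1 (0.115) and 0.52 without GFP replicate 2 (0.102).

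HMG20B, also called BRAF35, had the only lower probe set, and it was not the brightest. On 209113_s_at the values were 7.42 and 7.54 in the ZNF750-labelled arrays and 7.80 and 7.82 in the GFP arrays, a gap of 0.26. The difference was -0.33 ± 0.078 (adjusted p = 0.0356), at percentile 7.71 of all differences. On the brightest, 210719_s_at, the values were 9.69 and 9.71 with ZNF750, against 9.71 and 9.80 with GFP, and the groups overlapped (-0.06 ± 0.057). These responses differed by 0.27 ± 0.097, which did not pass (0.0863), and the dim 213966_at gave -0.10 ± 0.12. The fall was no longer called after cyclic loess (-0.29, adjusted p = 0.0512), after the second quantile normalization (-0.27, 0.0736) and without the intensity trend (0.0998). It was -0.27 without ZNF750 replicate 1 (0.170), -0.39 without ZNF750 replicate 2 (0.106), -0.34 without GFP replicate 1 (0.234) and -0.32 without GFP replicate 2 (0.212).

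**Figure D2:**
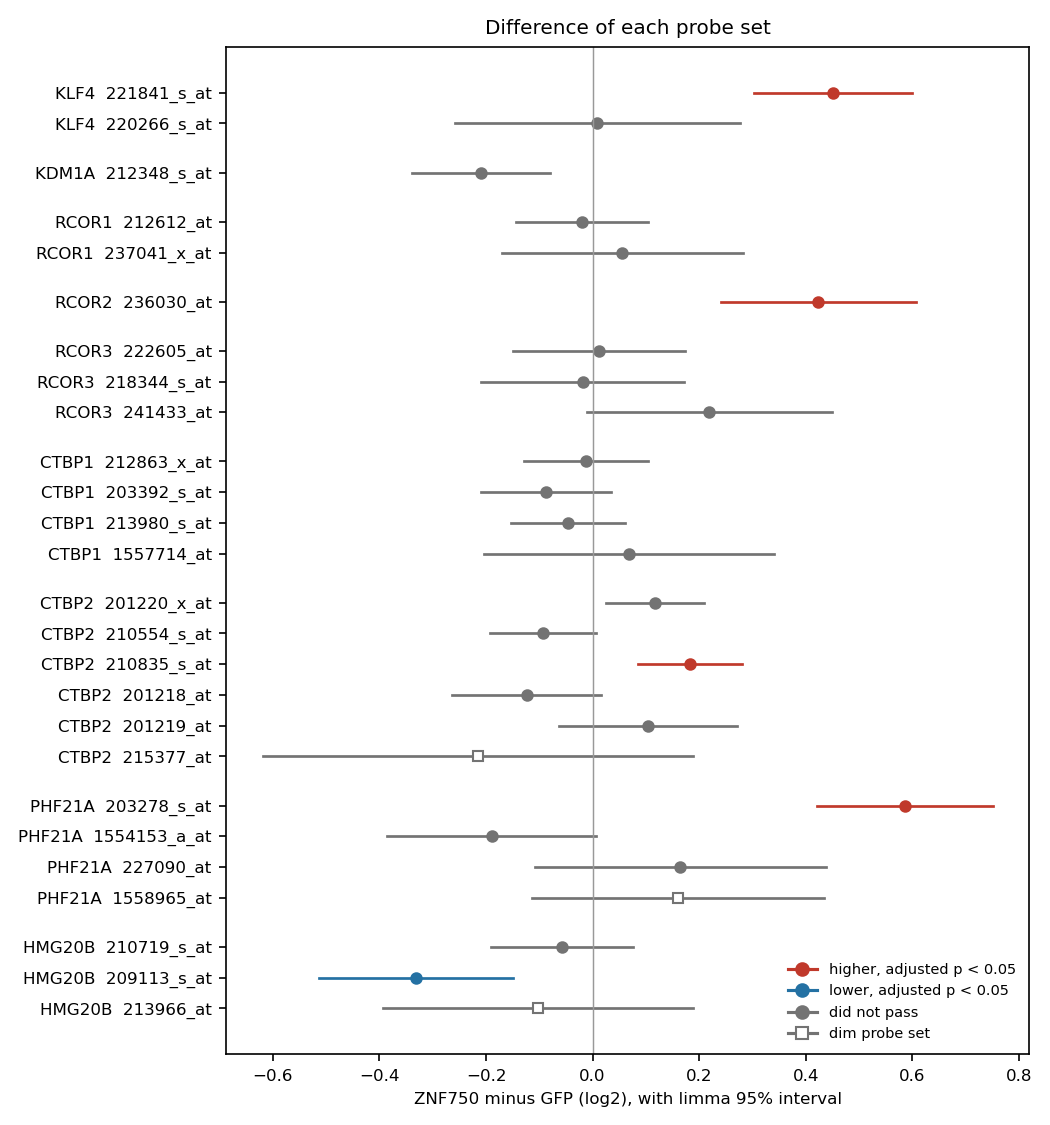
ZNF750-labelled minus GFP difference (log2) of each of the 26 probe sets with limma's 95% interval, by gene and, within a gene, from the brightest probe set down. PHF21A 203278_s_at at 0.59 and KLF4 221841_s_at at 0.45 lie farthest right, HMG20B 209113_s_at at -0.33 lies farthest left, and open squares are the 3 dim probe sets.

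Across the 7 genes with several probe sets, 17 pairs of a gene's brightest probe set with another could be compared. The responses differed in 4 of the 17, against 11.5% of 21316 such pairs on the arrays: 1 pair of KLF4, 2 of CTBP2 and 1 of PHF21A. The sign of the difference was opposite in 7 of the 17. The share of opposite signs over all pairs is not given here, nor is the share of differing pairs under other settings. Those counts therefore cannot be weighed against the arrays as a whole. Of the 9 brightest probe sets, 3 were higher (KLF4, RCOR2 and PHF21A) and 0 lower, against 6.39% higher and 8.75% lower over all genes. With 1 probe set per gene fitted, where 18% of all genes passed, KDM1A was lower too. By the mean of a gene's probe sets only RCOR2 was higher and KDM1A lower, and both are read by a single probe set. The pairs that differed numbered 2 without ZNF750 replicate 1, 2 without ZNF750 replicate 2, 2 without GFP replicate 1 and 3 without GFP replicate 2, and 0 without the intensity trend.

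**Figure D3:**
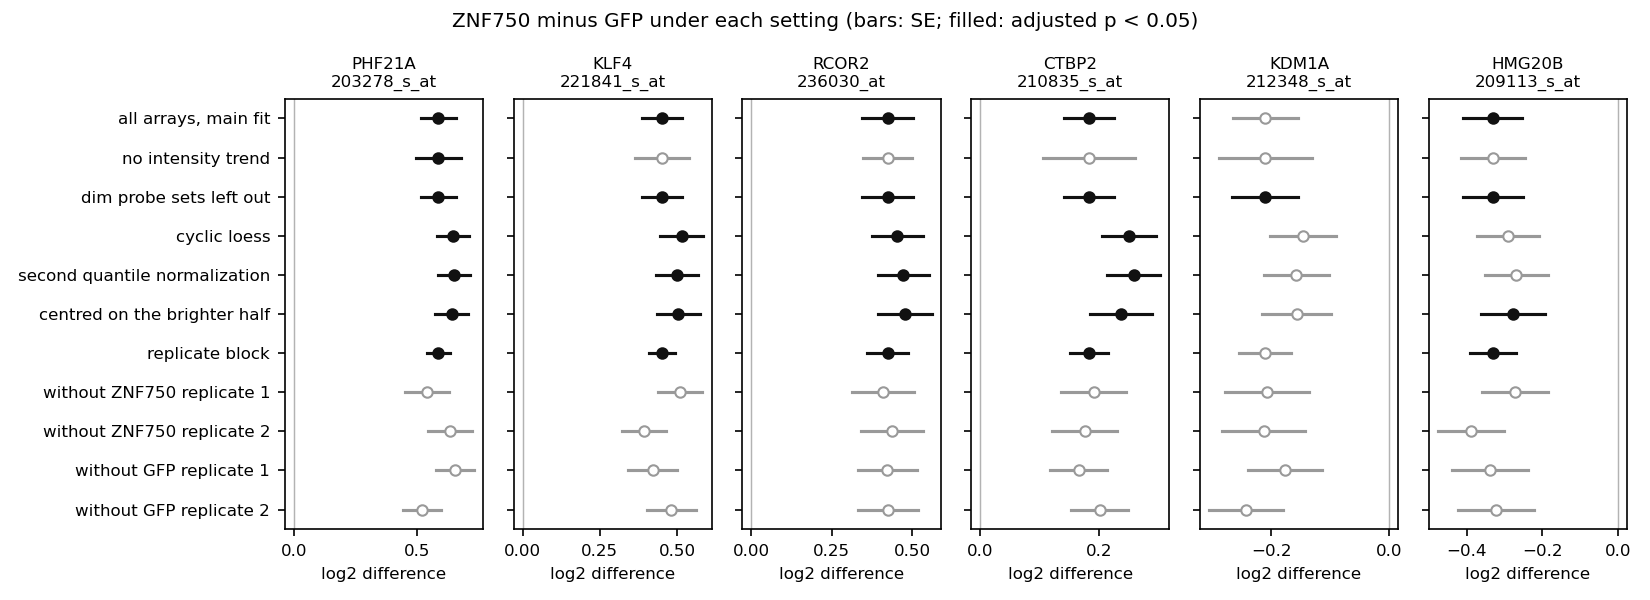
Difference (log2, ZNF750-labelled minus GFP, bars ± SE) of 6 probe sets under the settings listed on the left. Filled points passed at an adjusted p below 0.05 and open points did not. No point crosses 0, and none is filled when 1 array is left out.

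The other genes of the corepressor and its DNA-binding recruiters were mostly not called. Of 22 measured genes, 1 rose and 4 fell by their brightest probe set, 17 were not called, and the median difference was -0.03. Over all 19775 genes, 6.39% of brightest probe sets were higher and 8.75% lower, with a median of 0.036. Among the genes not called by their brightest probe set, ZMYM3 was higher on 2 of its 3 probe sets and ZEB1 on 1 of its 4. None of them had a lower probe set. HDAC1, the deacetylase bound to CoREST, had 10.89 and 10.96 with ZNF750 and 11.19 and 11.23 with GFP, and fell by 0.28 on the log2 scale (SE 0.047, adjusted p = 0.0102). HDAC2, its partner deacetylase, overlapped between the groups (10.39 and 10.14 with ZNF750, 10.38 and 10.22 with GFP). KDM1B, the LSD1 paralog LSD2, fell by 0.57 (SE 0.098, adjusted p = 0.0113), and ZNF516, a zinc finger protein that binds CtBP, by 0.56 (SE 0.12, 0.0256).

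GSE1, a coiled-coil protein found with HDAC1 and LSD1, rose by 0.54 ± 0.078 (adjusted p = 0.00639), with 8.23 and 8.09 in the ZNF750-labelled arrays against 7.64 and 7.61 in the GFP arrays. The remaining fall was that of CDYL, a chromodomain corepressor (-0.28 ± 0.064), named after its value was seen. With the mean of their probe sets, KDM1B gave -0.33 and did not pass (0.0980), and GSE1 gave 0.24 and passed (0.0485). The genes that rose numbered 3 after cyclic loess and 3 after the second quantile normalization, where 12.5% of all probe sets passed in each. They numbered 4 with centring on brighter probe sets (14.2% of all passed) and 2 with dim probe sets left out (26.4%). Without the intensity trend, where 2.33% of all probe sets passed, 0 rose and 0 fell in limma, against 1 and 4 in the main fit. With 1 array left out, GSE1 ran from 0.47 to 0.61 and HDAC1 from -0.32 to -0.24. KDM1B then ran from -0.70 to -0.45 and ZNF516 from -0.68 to -0.43. At an unadjusted limma p below 0.05 with all 4 arrays, 5 were higher and 5 lower, which cannot be weighed against all genes.

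Among the 16 other Krüppel-like factors, 2 rose and 2 fell, with a median difference of 0.049. Over all genes, 6.39% of brightest probe sets rose and 8.75% fell, and the median was 0.036. KLF9, not called by its brightest probe set, was higher on 1 of its 5. KLF5, a factor of proliferating epithelium, had 9.35 and 9.43 with ZNF750 against 8.86 and 8.64 with GFP, a rise of 0.64 ± 0.083 (adjusted p = 0.00441). KLF6 rose by 0.35 ± 0.053 (0.00754), and its mean over probe sets was 0.16 and did not pass. KLF3, a repressor that recruits CtBP, fell by 0.29 (SE 0.060, adjusted p = 0.0223), and KLF10, a TGF-beta-inducible factor, by 0.27 (SE 0.057, 0.0253). The fall of KLF3 shrank to -0.06 with the mean of its probe sets, and KLF10 did not pass after cyclic loess (0.0679) or the second quantile normalization (0.0514), which left 1 gene that fell in each. In this family 0 rose and 0 fell in limma with any 1 array left out or without the intensity trend, and with all 4 arrays 2 were higher and 2 lower at an unadjusted p below 0.05 as well.

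Of 18 measured genes reported to be regulated by KLF4 in epithelia, 6 rose and 3 fell. Over all genes, 6.39% of brightest probe sets rose and 8.75% fell. The list was chosen with earlier results of these data known, so the contrast is not an independent test. The median difference of the 18 was 0.19, against 0.036 over all genes. The list also holds genes that KLF4 is known to repress, such as the cyclin genes below. Its median therefore does not measure KLF4 activity. CDKN1C, not called by its brightest probe set, was higher on 1 of its 5. The largest rise was that of SLPI, a secreted antiprotease, with 12.28 and 12.27 in the ZNF750-labelled arrays against 9.88 and 9.87 in the GFP arrays (2.40 ± 0.041). IVL, a cornified envelope precursor, rose by 1.21 ± 0.086 and CDKN1A, which encodes the cell cycle inhibitor p21, by 0.80 ± 0.050. KRT19, a keratin of simple epithelium, rose by 0.16 ± 0.037 (adjusted p = 0.0309), but its mean over probe sets was 0.04. CCNB1, encoding cyclin B1, fell by 1.21 on the log2 scale (SE 0.072), or by 0.69 on its probe set without a shared-probe suffix, and CCND1, encoding cyclin D1, by 0.52 (SE 0.049). CCNE1, like them a cyclin gene that KLF4 is known to repress, rose by 0.40 ± 0.060 and is named after its value was seen. The genes that rose numbered 9 after cyclic loess and 9 after the second quantile normalization, where 12.5% of all probe sets passed in each. They numbered 11 with centring on brighter probe sets (14.2% of all passed). With dim probe sets left out they numbered 9 (26.4%), and without the intensity trend 3 (2.33%). They numbered 3 without ZNF750 replicate 1, 3 without ZNF750 replicate 2, 1 without GFP replicate 1 and 1 without GFP replicate 2, and those that fell 2, 2, 0 and 0 in the same order.

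Of 10 genes linked to CtBP repression, 5 rose and 0 fell, against 6.39% and 8.75% of brightest probe sets over all genes. The list was chosen with earlier results of these data known, so this contrast is not an independent test. Of the 10, 0 were dim, while the shares over all genes include dim ones. The median difference of the 10 was 0.20, against 0.036 over all genes. At an unadjusted limma p below 0.05, 8 were higher and 0 lower. The share of all genes at that threshold is not given, so this count adds no support. BIK, a death-promoting gene of the BCL2 family, had 9.74 and 9.89 with ZNF750 against 8.86 and 8.74 with GFP (1.01 ± 0.075, adjusted p = 0.000601). PMAIP1, which encodes NOXA, rose by 0.37 ± 0.057, the deacetylase gene SIRT1 by 0.50 ± 0.085 and PERP, a desmosome component, by 0.19 ± 0.032. PERP did not pass with the mean of its probe sets (0.08). CDKN1A is shared with the KLF4 list. EPCAM, an epithelial adhesion gene, had a difference of 0.18 ± 0.048 and did not pass (0.0548). It passed after cyclic loess (0.00950), the second quantile normalization (0.0105) and centring on brighter probe sets (0.00931). It also passed with dim probe sets left out (0.0295) and with 1 probe set per gene (0.0388). EPCAM did not pass without the intensity trend (0.269) or with only probe sets of 1 symbol tested (0.0508). With 1 array left out its difference ran from 0.12 to 0.24. TIAM1, which is reported as activated rather than repressed by CtBP2, differed by 0.21 ± 0.087, did not pass and is named after its value was seen. The genes that rose numbered 7 after cyclic loess and 8 after the second quantile normalization, where 12.5% of all probe sets passed in each. They numbered 8 with centring on brighter probe sets (14.2% of all passed) and 2 without the intensity trend (2.33%). They numbered 2 without ZNF750 replicate 1, 2 without ZNF750 replicate 2, 0 without GFP replicate 1 and 0 without GFP replicate 2.

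Of 18 neuronal genes that REST and CoREST are known to silence outside the nervous system, 0 rose, 4 fell and for 14 neither call was made. Their median difference was -0.0058, against 0.036 over all genes, where 6.39% of brightest probe sets rose and 8.75% fell. At an unadjusted limma p below 0.05, 2 of the 18 were higher and 5 lower, which cannot be weighed without the share of all genes. None was higher in the counts by gene under any other setting tried for this list, and 9 of the 18 were dim, where RMA understates differences. On probe sets other than the brightest, SCN2A was higher on 1 of its 2 probe sets and CALB1 lower on 1 of its 2. UCHL1, a neuronal deubiquitinase, had 10.66 and 10.68 with ZNF750 against 11.35 and 11.37 with GFP, a fall of -0.69 ± 0.043 (adjusted p = 0.000352). L1CAM, a neural adhesion molecule (-0.44 ± 0.057), BDNF, a neurotrophin (-0.39 ± 0.084), and TUBB3, the neuronal beta-tubulin (-0.33 ± 0.038), also fell. UCHL1 gave -0.28 on its probe set without a shared-probe suffix, which did not pass (0.414), and L1CAM gave -0.23 with the mean of its probe sets, which passed (0.0406). The genes that fell numbered 1 without ZNF750 replicate 1, 1 without ZNF750 replicate 2, 0 without GFP replicate 1, 0 without GFP replicate 2 and 1 without the intensity trend.

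**Figure D4:**
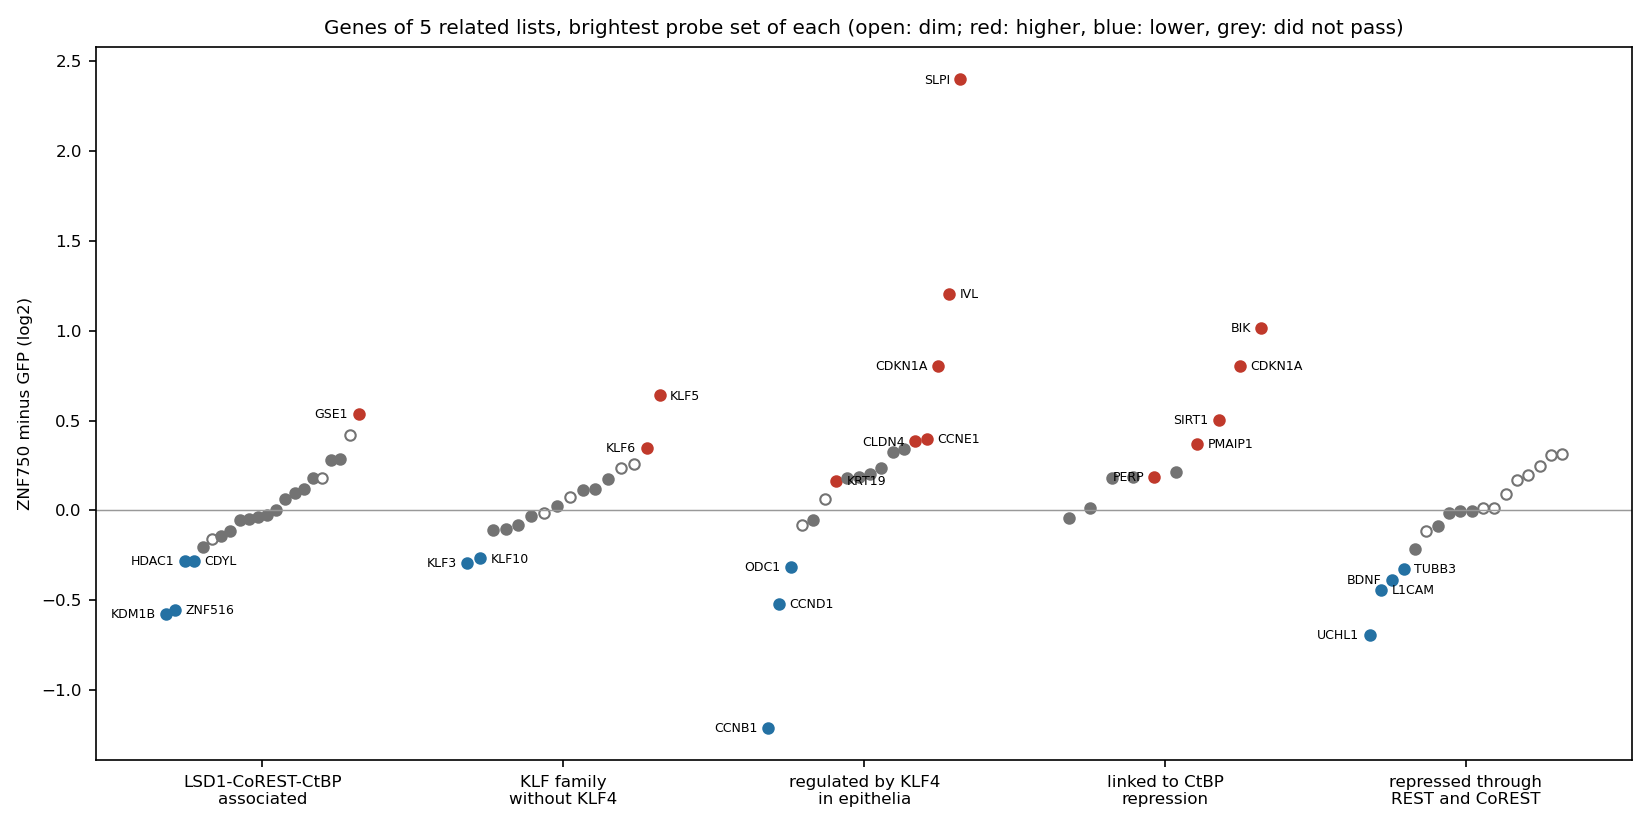
ZNF750-labelled minus GFP difference (log2) of the brightest probe set of each gene in 5 related lists, ordered by size within a list. Red points rose, blue points fell, grey points did not pass and open points are dim, and the genes that passed are labelled. SLPI at 2.40 and CCNB1 at -1.21 are the extremes.

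The genes whose brightest probe set ran most like KLF4's over the 4 arrays, among 19775 genes, were CDH10, WDTC1, FBXL13, ZNF611 and ETFBKMT, at Euclidean distances of 0.016 to 0.027 between centred log2 values. For PHF21A the nearest were FOLR3 (0.015) and CLCA2 (0.033), for RCOR2 PHLDB2 (0.0082) and SPINT3 (0.013), and for KDM1A GMFB (0.0039) and AMZ2 (0.0056). RCOR1 lay nearest to MATCAP1 and LINC01089, RCOR3 to EXD2 and LOC100288966, CTBP1 to USP48 and TMEM106B, CTBP2 to PIGP and FAM167A, and HMG20B to RNF181 and SLC2A8. With 4 arrays, such likeness describes these arrays only.

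The only ZNF750 probe set (219995_s_at) gave 2.23 and 2.29 in the ZNF750-labelled arrays and 2.13 and 2.37 in the GFP arrays, a difference of 0.0037 ± 0.11, and whether its probes lie inside the introduced sequence was not analysed here, so it does not check the labels. Of the 9 epithelial markers, the 7 measured had group means of 11.2 to 13.1 with ZNF750 and of 11.02 to 12.8 with GFP, and 3 of them rose and 1 fell. KRT17 and TP63 were not analysed here. Of 9 markers of blood, endothelial, muscle, fibroblast, liver and glial cells, 0 passed in limma and 1 was higher at an unadjusted p below 0.05 (group means were 3.58 to 8.46 with ZNF750 and 3.67 to 8.27 with GFP). Their summed log2 values were 48.6 and 49.4 with ZNF750 against 46.8 and 48.4 with GFP. The ACTB control probe sets at the 3′ and 5′ ends differed by 3.76 and 3.35 in the ZNF750-labelled arrays and by 3.03 and 2.81 in the GFP arrays, a sign of RNA integrity that moved with the group. The bioB hybridization controls gave 9.36 and 9.54 in the ZNF750-labelled arrays and 9.01 and 9.07 in the GFP arrays. The part of either in these results was not tested. Lower probe sets made up 62.6% of all that passed, but 46.2% with centring on brighter probe sets, 53.1% after the second quantile normalization and 54.2% after cyclic loess.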

How the data were processed

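The authors deposited log2 values for every probe set on 4 arrays, and RMA is the only tool in the submitters' processing notes. RMA corrects background, quantile normalizes and summarises probe sets, and it shrinks differences of dim ones. Symbols came from the platform annotation. After 62 control probe sets were left out, a linear model of all 54613 others was made by limma 3.58.1 under R 4.3.3 (lmFit, and eBayes with an intensity trend, 2 residual degrees of freedom), ZNF750-labelled minus GFP, with Benjamini-Hochberg adjustment over all of them and a threshold of 0.05. A ± gives the standard error that limma attaches to a difference. A probe set was dim if its mean lay under the median of 5.47. Responses of 2 probe sets of a gene were compared by fitting their within-array difference over 21316 pairs. Lists used each gene's brightest probe set. Named genes were the members, up to 4 genes per list with the largest difference among those that passed, each list's 2 brightest, and nearest profiles. The members and lists were chosen with earlier results of these data known, so their counts set against all genes are not independent tests. The fits were tested on simulated data. Alternatives covered the variance prior, dim probe sets, normalization, probe set choice, thresholds, the replicate block and leaving out each array. No detection calls or scanner files were used here, and the number of arrays limits the precision.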

Additional observations from a re-analysis of the deposited data

How the results depend on the processing

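Of the 4 higher and 1 lower probe sets, 0 to 0 were higher and 0 to 0 lower with 1 array left out. Without the intensity trend, where 2.33% of all probe sets passed, 1 was higher (PHF21A) and 0 lower. At an adjusted p below 0.01, with 3.99% of all passing, 2 were higher and 0 lower. The lower count was 2 with dim probe sets left out (26.4% of all passed), 2 with probe sets of 1 symbol only (13.6%) and 2 at an adjusted p below 0.1 (17.3%), in each case with KDM1A added to HMG20B. It was 0 after cyclic loess and 0 after the second quantile normalization (12.5% of all passed in each). Of the 3 genes higher by their brightest probe set, 1 remained with the mean of probe sets, RCOR2 (13.4% of all genes passed). With probe sets that lack a shared-probe suffix the count was also 1, RCOR2, but KLF4 and KDM1A have no such probe set and were not tested there, so of the 3 it was PHF21A that no longer passed. The 0 lower became 1 with 1 probe set per gene and 1 with the mean. The 4 pairs of probe sets that differed became 0 without the intensity trend and 2 to 3 with 1 array left out. With replicate number as a block, where 10.6% of all probe sets passed, 4 probe sets were higher, 1 was lower and 4 pairs differed. The share of all pairs that differed under these other settings is not given here. Under this block 2 associated corepressor genes rose and 3 fell, 7 genes linked to CtBP repression rose, BDNF (adjusted p = 0.0700) and KRT19 (0.0535) were no longer called, and EPCAM passed (0.0436). The labels do not say that a number marks a shared culture or batch, and same-numbered arrays deviated together with a correlation of 0.134 over probe sets. Counts over the gene lists under other settings were chosen after the data had been seen. The cause of these shifts was not tested. Fits that leave out an array have 1 sample in a group, which is assumed to vary like the other group.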
